A study of Macaca mulatta with 26 samples.

Results

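The retina of the rhesus macaque was set against pooled RNA of other tissues in an RNA sequencing study of the pineal gland and the retina around the day. The comparison used every library labelled Retina, 12 of the 26 in the series, and both libraries labelled Control. It tested 25392 of 50308 genes, those reaching an FPKM of 1 in 2 or more of these 14 libraries. FPKM is the number of fragments per kilobase of gene and per unit of library size, so levels of different genes are compared per length. Per the labels, the animals were adult macaques of both sexes, 12 in all, between 3 and 33 years old and between 4 and 10.3 kg, with no genotype or drug group. They were obtained over 11 years and lived for 6 weeks or longer in 12 h of light and 12 h of darkness, with lights on at 0600. Retina was taken from 3 animals at each of 4 times, which were mid-day (between 1100 and 1300), dusk (between 1700 and 1900), midnight (between 2300 and 0100) and dawn (between 0500 and 0700), and a small piece of tissue gave the total RNA. The pools, 1 from mid-day and 1 from midnight, each joined equal amounts of RNA from 16 tissues: testis, ovary, small intestine, skeletal muscle, kidney, lung, liver, heart, pituitary, medulla, caudate, hippocampus, thalamus, cerebellum, frontal cortex and corpus callosum. The number of animals behind a pool was not given in the sources used here. A pool is an average, so a gene used by 1 of its tissues stands there at a fraction of its level in that tissue, and the retina was compared with the average and not with any tissue in it.

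The retina turns light into nerve signals. In rods and cones, light activates an opsin, the G protein transducin switches on a phosphodiesterase that removes cyclic GMP, and cation channels of the outer segment close. Glutamate release at the photoreceptor's ribbon synapse then falls, bipolar cells carry the signal inward under the control of horizontal and amacrine cells, and ganglion cells send it to the brain. Muller glia span the tissue, and the retinal pigment epithelium behind it regenerates the light-sensitive chromophore.

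Reads assigned to genes numbered between 16.9 and 21.4 M in the retina libraries, 23.0 M in the mid-day pool and 16.2 M in the midnight pool. Retina libraries of the same time differed beyond counting error (mean chi-square a gene between 7.59 and 34.2), and so did the mid-day and the midnight pool (40.3), which differ in time as well. The retina libraries dawn 2 and mid-day 1 stood apart from the other 10. Among genes named as antisense to a host gene with an FPKM of at least 5, the median antisense level was 10.04% to 11.3% of the host in the 10 libraries, but 0.751% in dawn 2 and 0.596% in mid-day 1, near the 0.653% and 1.39% of the pools. Genes listed at 0 made up 44.8% and 45.7% of the table in these 2 libraries and 33.5% to 35.2% in the others. Whether reads were counted by strand was not given in the sources used here, and the cause of the split was not tested. Some results below are therefore also given for these 2 libraries alone or without them. In tissue RNA, fewer cells of a type and less RNA per cell cannot be told apart.

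**Figure D1:**
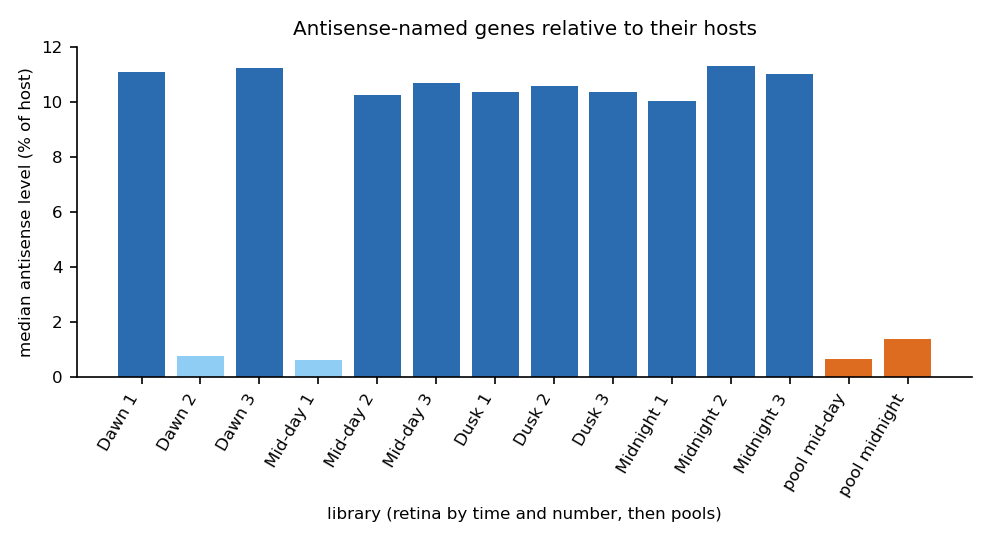
Median FPKM of antisense-named genes as a percentage of their host gene (y axis), over hosts with an FPKM of at least 5, for each of the 12 retina libraries and the 2 pools (x axis). The bars of retina dawn 2 (0.751%) and mid-day 1 (0.596%) are near those of the pools, and the other 10 retina libraries lie between 10.04% and 11.3%.

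Genes of the rod and cone photoreceptor led the retina. By limma, 15918 of 25392 genes (62.7%) differed between retina and pools at a Benjamini-Hochberg adjusted p under 0.05, 8555 (33.7%) higher and 7363 (29.0%) lower in retina. The median log2 difference over all genes tested was 0.11. At least 4-fold differences on the log2(FPKM + 0.5) scale numbered 2355 higher (9.27%) and 2168 lower (8.54%). The higher side rested on the libraries more than the lower. Without dawn 2 and mid-day 1, 9600 genes (38.1%) were higher and 7648 (30.3%) lower, and in these 2 alone 3998 (20.0%) were higher and 5757 (28.8%) lower of 19961 tested. Limma's voom on reads recovered from the FPKM values gave 5296 higher and 7447 lower, a share of 41.6% higher among called genes against 53.7%. Leaving out the mid-day pool left 8462 called genes and leaving out the midnight pool 8274. Of the 2355 higher genes, 669 were also at least 4-fold above the pools in the mean of dawn 2 and mid-day 1, while of the 2168 lower genes 1945 were at least 4-fold below. Antisense-named genes gave 109 of the 2355, of which 19 had no overlap between retina and pool libraries. Clone-like names gave 1607, of which 372 had none. These are names of clones, small RNAs and LINC RNAs and provisional symbols such as LOC, FAM, KIAA or orf names, some of them protein-coding. Of 410 antisense-named genes tested 239 were higher in retina, 76 of them without overlap, against 33.7% higher over all genes. Called genes with every retina library above both pools numbered 5182 (20.4%), and 6590 (26.0%) had every retina library below both. Genes at least 4-fold higher in retina with every retina library above both pools numbered 857 (3.38%), and 2111 (8.31%) were at least 4-fold lower with every retina library below both. Called genes described below with their levels had no overlap between retina and pool libraries unless an overlap is stated, and lists are given as counts of tested members. A gene under 1 FPKM in both pools, or in all 12 retina libraries, passed the filter only through the group where it is high. Counts of such genes describe the list and are no support for its direction. Under 1 FPKM in both pools were 1 of 10 photoreceptor channel and pump, 2 of 23 photoreceptor cilium and 2 of 15 visual cycle genes. So were 1 of 14 ribbon synapse and 1 of 22 glycolysis and lactate genes. Of 19 core clock genes 1 was under 1 FPKM in all 12 retina libraries.

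The 15 largest retina excesses among named genes without overlap all belonged to photoreceptors. RBP3, which carries retinoids between photoreceptors and pigment epithelium, had the largest difference, with 713, 865 and 954 FPKM as the lowest, median and highest retina values and 1.49 and 1.08 FPKM in the mid-day and midnight pools. Its log2 difference was 8.89 ± 0.11 (SE, limma adjusted p = 1.20e-16), and the means stood at a ratio of 656. GNAT1, the alpha subunit of rod transducin, had 753, 983 and 1097 FPKM against 1.78 and 1.395 (log2 8.84 ± 0.14, adjusted p = 8.66e-16). No retina library of either gene came within 100-fold of a pool. PRPH2, PDC, ARR3, AIPL1, PDE6G, SAG, RAX2, RP1, CRX, TULP1, PDE6A and KCNV2 were also among the 15, with retina means from 207 FPKM and log2 differences from 8.26. In dawn 2 and mid-day 1 alone the 15 log2 differences ran from 8.19 to 8.90. At mid-day alone they ran from 8.06 to 8.79 and at midnight alone from 8.18 to 9.17. Neither pool alone gave the excess.

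**Figure D2:**
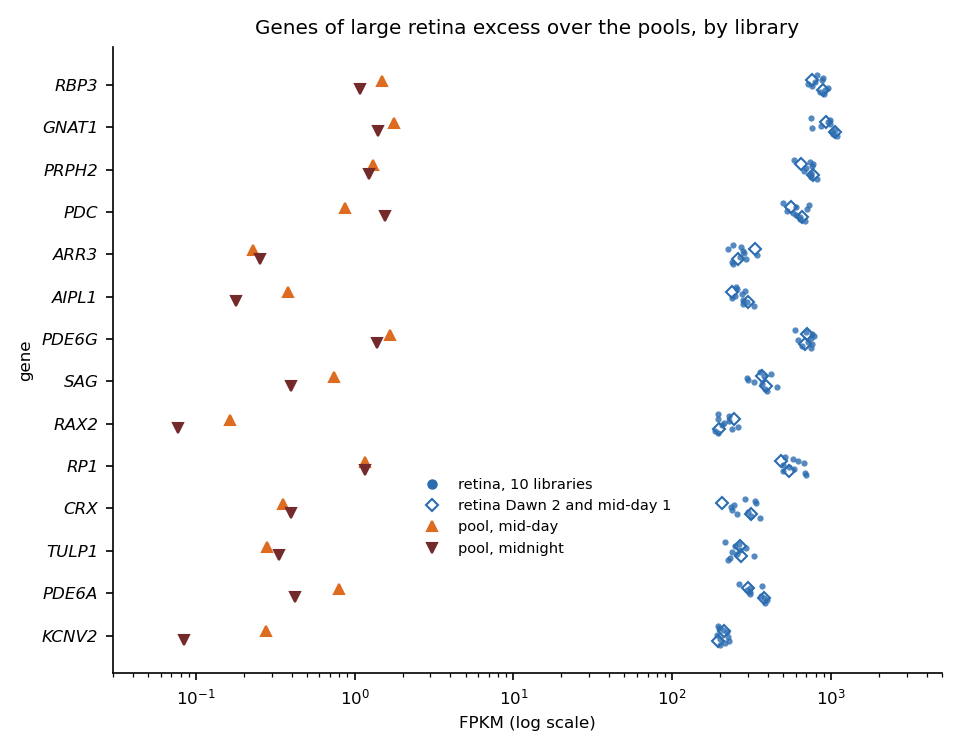
FPKM (x axis, log scale) of 14 of the 15 genes with the largest retina excess (y axis) in each of 10 retina libraries (filled circles), retina dawn 2 and mid-day 1 (open diamonds) and the mid-day and midnight pools (triangles). All retina values lie more than 100-fold above the pools, and the open diamonds fall among or beside the filled circles.

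Rod phototransduction was higher in retina in all of its 21 listed and tested genes, with a median log2 difference of 7.50, and every retina library was above both pools for each gene. Of the 21 genes 10 were under 1 FPKM in both pools. Summed over the list, retina libraries held 6379.7 to 8179.7 FPKM and the pools 75.5 and 73.7, and the list took 2.15% to 2.74% of assigned retina reads. The phosphodiesterase subunits differed in level, with 594, 709 and 779 FPKM for the inhibitory PDE6G, 263, 335 and 393 for the catalytic PDE6A and 151, 202 and 242 for its partner PDE6B. In the pools they were at 1.67 and 1.38, 0.797 and 0.418 and 0.594 and 0.579 FPKM, and the log2 differences were 8.45, 8.26 and 7.50. Both SAG and GRK1, which shut the response off, were above the pools in every retina library. SAG, the arrestin of rods, had 294, 373 and 454 FPKM against 0.744 and 0.396, and GRK1, a kinase of photoreceptors, 123, 151 and 205 against 0.169 and 0.137. The smallest differences belonged to subunits that other tissues also use. GNB1, a widely used G protein beta subunit, had 274, 358 and 400.1 FPKM against 38.6 and 39.8 (log2 3.14 ± 0.12, adjusted p = 9.11e-12), and RGS9, which ends transducin signalling and is also known from the striatum, had 41.9, 46.6 and 55.5 against 8.98 and 7.55 (log2 2.44 ± 0.09, adjusted p = 1.39e-11). The guanylate cyclase activators GUCA1A and GUCA1B varied most among retina libraries, from 221 to 477 and from 236 to 596 FPKM, without coming near the pools.

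Of 14 cone phototransduction genes 12 passed the filter, 11 of them higher and 1 lower in retina, with a median log2 difference of 5.59. Of the 12 genes 6 were under 1 FPKM in both pools. ARR3, cone arrestin, had 224, 269 and 341 FPKM against 0.228 and 0.251 (log2 8.52 ± 0.13, adjusted p = 7.28e-16). PDE6H, the inhibitory subunit of the cone phosphodiesterase, had 322, 375 and 445 against 1.28 and 1.65, and its catalytic partner PDE6C 27.3, 37.3 and 50.9 against 0.288 and 0.261. OPN1SW, the pigment of short-wavelength cones, ranged from 23.7 to 74.4 FPKM, with the highest value in mid-day 1, against 0.159 and 0.339 in the pools (log2 5.58 ± 0.27, adjusted p = 2.50e-10). The other cone opsins, OPN1LW and OPN1MW, which are near-identical copies of each other, were listed at 0 in all 26 libraries and give no measure of cone pigment. The channel subunits were lower in level, with 6.48, 8.04 and 12.2 FPKM for CNGB3 and 4.36, 4.9004 and 6.73 for CNGA3, and both were above the pools in every retina library. SLC24A2, a sodium-calcium exchanger of cones and brain neurons, was the lower gene, at 27.2, 30.9 and 39.9 FPKM against 41.4 and 43.6 (log2 -0.41 ± 0.12, adjusted p = 0.0119). In dawn 2 and mid-day 1 alone it was not called (log2 -0.22).

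Outer segment structure and maintenance gave 22 higher genes of 22 tested, each at least 4-fold, with a median log2 difference of 6.46, and 12 of them were under 1 FPKM in both pools. The disc rim proteins PRPH2 and ROM1 had nearly the same level, 588, 745 and 818 FPKM and 589, 687 and 819.6 FPKM, against pool values of 1.31 and 1.22 and 3.17 and 2.86. AIPL1, a chaperone of the phosphodiesterase, had 239, 276 and 327 FPKM against 0.3802 and 0.1799 (log2 8.46 ± 0.11, adjusted p = 1.96e-16). CRB1, a cell polarity protein, differed least, with 37.5, 44.001 and 53.3 FPKM against 6.78 and 6.61 (log2 2.63 ± 0.11). MAK, a kinase of the photoreceptor cilium that is also known from testis, was at 1.21 FPKM in the mid-day pool and 8.13 in the midnight pool, against 147, 177 and 202 in retina.

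Of 10 photoreceptor channels, exchangers and pumps, 8 were higher and 1 lower, with a median log2 difference of 3.54. KCNV2, a modifier of potassium channels in the inner segment, had 192, 204 and 227 FPKM against 0.278 and 0.0844 (log2 8.26 ± 0.09, adjusted p = 5.47e-17), and its 12 retina values were close to each other. The calcium pump ATP2B1 was level with the pools, at 63.2, 68.03 and 75.8 FPKM against 64.9 and 62.5, and was not called (adjusted p = 0.151).

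The photoreceptor cilium, the stalk that joins inner and outer segment, showed smaller differences. Of 23 tested genes 18 were higher, 1 lower and 4 not called, and the median log2 difference was 0.70. Over all genes 33.7% were higher, and the median was 0.11. RPGRIP1, an anchor of the RPGR complex, had 45.2, 79.2 and 102 FPKM in retina, but the pools parted, with 0.111 FPKM at mid-day and 15.8 at midnight (log2 4.51 ± 0.73, adjusted p = 1.05e-04). Its log2 difference was 6.78 with mid-day libraries only and 2.04 with midnight libraries only, and in dawn 2 and mid-day 1 alone it was not called (adjusted p = 0.0793). CEP290, a gatekeeper of the connecting cilium, had 19.9, 21.5 and 26.7 against 7.72 and 8.12 (log2 1.44 ± 0.09, adjusted p = 7.22e-09). KIF17, a ciliary kinesin, was the lower gene, at 0.123, 0.634 and 1.14 FPKM against 1.83 and 7.31 (log2 -2.03 ± 0.38, adjusted p = 3.90e-04). The genes not called were BBS1, MKKS, IFT88 and SPATA7, and with dawn 2 and mid-day 1 alone 13 of the 23 were higher.

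In the visual cycle, which rebuilds the chromophore, 9 of 15 genes were higher, 1 was lower and 5 were not called. Besides RBP3, RLBP1, the retinal-binding protein of Muller glia and pigment epithelium, had 175, 235 and 270.3 FPKM against 1.42 and 0.747 (log2 7.22 ± 0.16, adjusted p = 3.91e-14). ABCA4, the flippase that clears retinal from discs, had 237, 308 and 369.9 against 1.84 and 1.404, and RDH12, a retinol dehydrogenase of photoreceptors, 256, 302 and 348 against 2.79 and 2.37. RBP4, the retinol carrier of blood plasma that liver makes, was the lower gene, at 4.71, 5.78 and 11.97 FPKM against 213 and 236 (log2 -5.04 ± 0.26, adjusted p = 4.39e-10). Genes made by the pigment epithelium were spread widely among retina libraries. RPE65, the isomerase of the cycle, ran from 1.73 to 63.2 FPKM with a median of 23.5, against 3.12 and 3.91, and was not called (log2 2.08 ± 1.05, adjusted p = 0.0981). Over the pigment epithelium list, 4 of 11 tested genes were higher (TYRP1, RGR, RDH5 and SLC45A2), OCA2 was lower and 6 were not called, and TYR, DCT and MLANA did not pass the filter. Of the 11 genes 3 were under 1 FPKM in both pools, and over all genes 33.7% were higher. The list's summed FPKM ran from 50.7 in mid-day 3 to 221 in midnight 1, with 36.5 and 37.2 in the pools. TYRP1, a melanin enzyme, spanned 4.31 to 56.5 FPKM in retina against 0.122 and 0.122 (log2 5.18 ± 0.61, adjusted p = 4.26e-06), and by voom its adjusted p was 0.0579.

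Transcription factors of the retina were higher in 20 of 23 tested genes and lower in none, with a median log2 difference of 2.67. CRX, the homeobox activator of photoreceptor genes, had 206, 294 and 357 FPKM against 0.355 and 0.399 (log2 8.33 ± 0.17, adjusted p = 1.60e-14), and RAX2, a related factor, 186, 210.2 and 260.0 against 0.163 and 0.0772. NRL, which sets rod fate, had 179, 225 and 257 against 0.743 and 0.596 (log2 7.59 ± 0.12, adjusted p = 1.06e-15), and its target NR2E3 64.97, 99.4 and 123 against 0.144 and 0.164. PAX6, which amacrine, horizontal and ganglion cells keep, was higher by less, with 22.1, 24.5 and 30.2 FPKM against 3.83 and 3.27 (log2 2.67 ± 0.09). SALL3, MEF2C and PRDM1 were not called, and BHLHE22 was not in the table. Of the 23 genes 9 were under 1 FPKM in both pools.

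The ribbon synapse, where photoreceptors and bipolar cells release glutamate, held 12 higher genes and 1 lower gene of 14 tested, with a median log2 difference of 2.12. CPLX4, a complexin of ribbon synapses, had 122, 141 and 161 FPKM against 0.282 and 0.243 (log2 7.53 ± 0.10, adjusted p = 2.00e-16). The calcium channel of the ribbon appeared in its pore subunit CACNA1F, with 81.8, 102 and 123 against 3.56 and 2.71, its auxiliary CACNA2D4, with 69.8, 103 and 112 against 0.791 and 1.25, and its regulator CABP4, with 87.1, 102 and 118 against 1.32 and 1.696. STX3, the syntaxin of ribbon synapses, was higher at 93.99, 100.4 and 110.3 FPKM against 8.48 and 7.76 (log2 3.57 ± 0.06, adjusted p = 2.62e-15), whereas STX1A, the syntaxin of conventional synapses, was lower at 2.68, 3.02 and 4.51 against 13.1 and 12.1 (log2 -1.85 ± 0.14, adjusted p = 4.19e-08). The scaffold PCLO was not called and BSN was lower (log2 -0.80 ± 0.15). CPLX3 was listed at 0 in nearly every library and could not be tested. Conventional synapse genes gave 4 higher, 8 lower and 6 not called of 18, with a median of -0.46. The shares over all genes were 33.7% higher and 29.0% lower. SYN1 and SYN2, synapsins absent from ribbon synapses, were both lower (log2 -1.08 and -1.83). DLG4, the postsynaptic scaffold PSD-95, went the other way, with 96.6, 110.4 and 119 FPKM against 23.4 and 23.3 (log2 2.20 ± 0.06). Of the 16 pooled tissues 7 were brain regions, and their part in these differences was not tested.

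**Figure D3:**
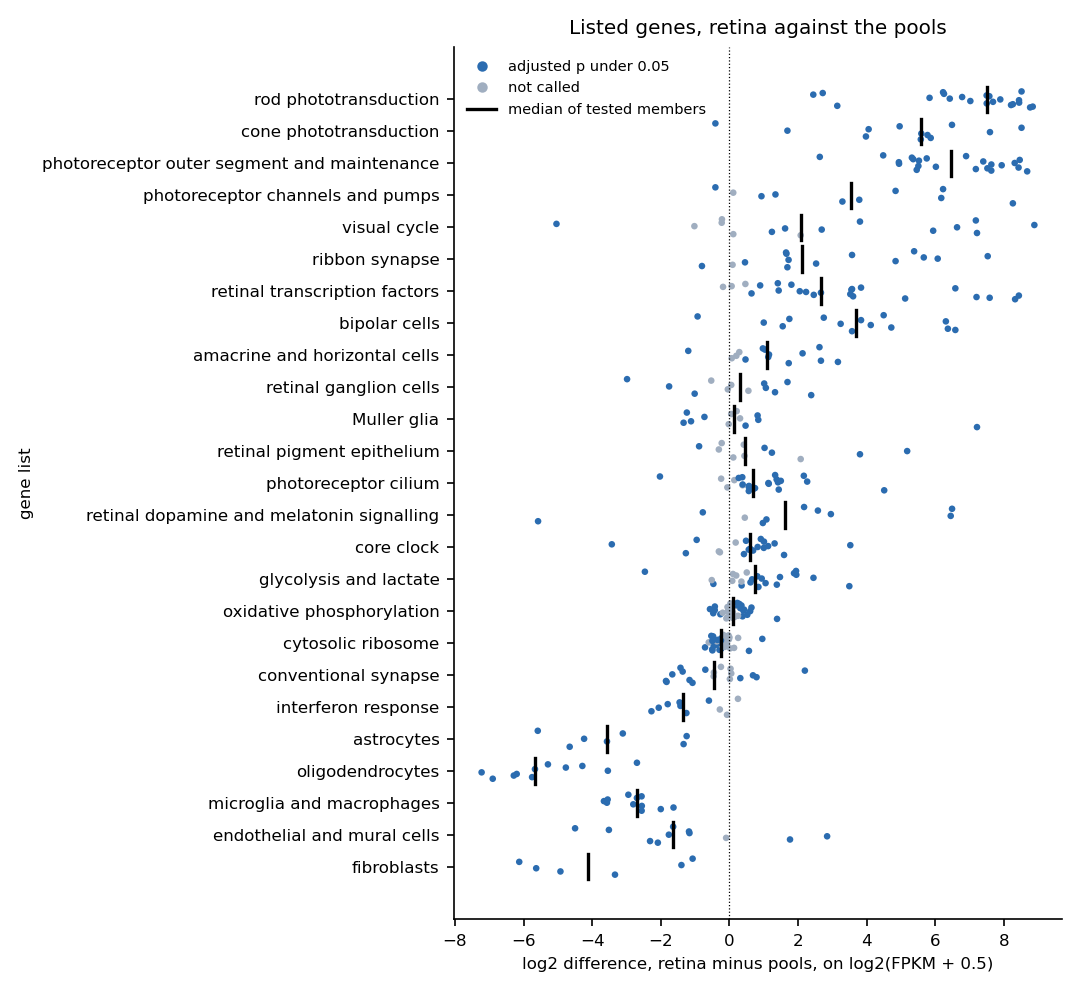
Log2 difference between retina and pools (x axis, on log2(FPKM + 0.5)) of every tested member of 25 gene lists (y axis). Blue points had an adjusted p under 0.05, grey points did not, and black bars are medians, which run from 7.50 for rod phototransduction to -5.67 for oligodendrocytes.

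Bipolar cell genes were higher in 13 of 14 tested, with a median log2 difference of 3.70, and 10 were under 1 FPKM in both pools. GRM6, the glutamate receptor of ON bipolar cells, had 37.4, 46.8 and 55.96 FPKM against 0.0798 and 0.06605 (log2 6.37 ± 0.13, adjusted p = 1.78e-14), and TRPM1, the channel it closes, 25.3, 31.05 and 42.6 against 0.702 and 0.697. GPR179, which holds the same signalling complex, had 15.7, 20.2 and 23.3 against 0.704 and 0.651. PCP2, known from bipolar cells and cerebellar Purkinje cells, was highest in dawn 2 and mid-day 1, at 91.8 and 102 FPKM, and at 36.03 to 49.1 in the other retina libraries, against 5.94 and 3.86. SCGN, a calcium-binding protein, was lower, with overlapping groups (adjusted p = 0.0279). Of 14 amacrine and horizontal cell genes 10 were higher, 1 lower and 3 not called, with a median of 1.08. The shares over all genes were 33.7% higher and 29.0% lower. Among these 14, 5 were under 1 FPKM in both pools and 1 in all 12 retina libraries. TFAP2B, an amacrine factor, had 7.82, 8.76 and 10.4 against 0.6202 and 0.5001 (log2 3.16 ± 0.10, adjusted p = 2.37e-12), and ONECUT1, a horizontal cell factor, 3.19, 4.13 and 5.59 against 0.646 and 0.504 (log2 2.13 ± 0.16). LHX1 was the lower gene of this list, and ONECUT2 was not called. The GABA transporter SLC32A1 and the synthetic enzyme GAD2, which brain shares, were not called either (adjusted p = 0.242 and 0.844).

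Of 12 ganglion cell genes 5 were higher, 3 lower and 4 not called, with a median log2 difference of 0.30, and 3 were under 1 FPKM in both pools. Over all genes tested 33.7% were higher and 29.0% lower, so the ganglion cell counts were near the shares over all genes. POU4F2, a factor of ganglion cells, had 1.604, 3.199 and 5.88 FPKM against 0.266 and 0.118 (log2 2.38 ± 0.38, adjusted p = 9.00e-05), and OPN4, the pigment of light-sensitive ganglion cells, 0.34003, 1.18 and 2.795 against 0.0176 and 0.050003 (log2 1.69 ± 0.44). GAP43 and THY1, which neurons of the brain also make, were lower (log2 -2.99 and -1.76), and so was RBPMS. NEFL, NEFM, SLC17A6 and STMN2 were not called. The list's summed FPKM varied more than 3-fold among retina libraries, from 256 in midnight 2 to 788 in mid-day 1. SNCG, gamma-synuclein, followed the same order at its upper end, with 177 FPKM in mid-day 1 and a median of 79.9 against 32.8 and 32.4 (log2 1.33 ± 0.34, adjusted p = 0.00392). Muller glia gave 4 higher, 4 lower and 4 not called of 12, also near the shares over all genes. Besides RLBP1, GLUL, glutamine synthetase, was higher by little, at 66.9, 85.8 and 93.9 FPKM against 60.7 and 60.03 (log2 0.47 ± 0.10, adjusted p = 0.00107). AQP4 and KCNJ10, the water and potassium channels that astrocytes share, were lower (log2 -1.34 and -1.12). SOX8 and CLU were lower as well, and SLC1A3, SOX9, VIM and APOE were not called. Of 13 lens and cornea genes 5 passed the filter, 3 of them higher and 1 lower, against 1 and 1 of 3 in dawn 2 and mid-day 1 alone. Of the 5 genes 4 were under 1 FPKM in both pools and 1 in all 12 retina libraries. CRYAA, alpha-A crystallin, had 27.3, 48.7 and 89.1 FPKM against 0.1695 and 0 (log2 6.34 ± 0.36, adjusted p = 1.46e-09).

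Among 10 tested of 14 genes of dopamine, serotonin and melatonin signalling, 7 were higher and 2 lower, and in dawn 2 and mid-day 1 alone 4 were higher and 1 lower of 8. Over all genes 33.7% were higher and 29.0% lower with the 12 retina libraries, and 20.0% and 28.8% in these 2 alone. Of the 10 genes 4 were under 1 FPKM in both pools and 1 in all 12 retina libraries. AANAT, the acetyltransferase of melatonin synthesis, had 40.2, 55.03 and 87.1 FPKM in retina against 0.199 and 0.0847 (log2 6.49 ± 0.20, adjusted p = 9.55e-13). DRD4, the dopamine receptor of photoreceptors, was at 78.3, 63.3 and 91.7 FPKM in the dawn libraries, 28.7, 50.2 and 110.2 at mid-day, 18.4, 40.1 and 20.9 at dusk and 75.04, 72.6 and 89.7 at midnight. All 12 values were above the pools' 0.0978 and 0.139 FPKM (log2 6.45 ± 0.58, adjusted p = 2.41e-07), and the lowest came at dusk. TH, the first enzyme of dopamine synthesis, was low but above the pools, at 0.406, 0.804 and 1.099 FPKM against 0.256 and 0.0559 (log2 0.97 ± 0.20, adjusted p = 7.76e-04). DDC, the decarboxylase of the same pathway, was far lower, at 0.0937, 0.232 and 0.628 FPKM against 39.1 and 33.99 (log2 -5.58 ± 0.22, adjusted p = 2.11e-11). SLC18A2, the vesicular monoamine transporter, was at 0.869 and 1.13 FPKM in dawn 2 and mid-day 1 and at 13.2 to 16.2 in the other 10 libraries, against 1.397 and 0.4304, so its excess was that of the 10 (log2 0.17 in the 2 alone). DRD2 stood above both pools in every retina library, at 5.06 to 9.29 FPKM against 4.91 and 3.99, and did not pass (adjusted p = 0.0538).

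Core clock genes were higher in 13 of 19, lower in 3 and not called in 3, with a median log2 difference of 0.60. The shares over all genes were 33.7% higher and 29.0% lower. RORB, an orphan receptor of retina and brain, had the largest excess, at 59.3, 83.9 and 97.9 FPKM against 7.29 and 5.64 (log2 3.52 ± 0.19, adjusted p = 7.16e-10). ARNTL, the partner of CLOCK, had 23.5, 26.7 and 30.6 against 8.35 and 8.65 (log2 1.59 ± 0.08), while NPAS2, a paralogue of CLOCK, was lower at 0.66003, 0.891 and 1.09 against 2.86 and 2.74 (log2 -1.27 ± 0.14, adjusted p = 2.73e-06). PER1 and PER2 were not called, and their retina and pool values overlapped.

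Glycolysis and lactate genes were higher in 14 of 22, lower in 2 and not called in 6, with a median log2 difference of 0.74. Of all genes tested, 33.7% were higher and 29.0% lower. HK2, the hexokinase that starts the pathway in photoreceptors, had 34.3, 52.1 and 93.4 FPKM against 5.45 and 3.36 (log2 3.49 ± 0.28, adjusted p = 5.40e-08). ENO2, the neuronal enolase, had 366, 429 and 482 against 83.4 and 72.3 (log2 2.45 ± 0.10), and SLC16A1, the lactate transporter MCT1, 44.5, 55.95 and 63.5 against 12.01 and 17.9 (log2 1.88 ± 0.14). SLC16A7, the transporter MCT2, was lower at 1.79, 2.56 and 4.33 against 12.4 and 23.1 (log2 -2.47 ± 0.25, adjusted p = 7.78e-07). GAPDH was not called, and dawn 2 and mid-day 1, at 303 and 348 FPKM, stood above the other 10 at 143 to 172 and above the pools' 275 and 231. Very-long-chain lipid genes gave 5 higher and 4 lower of 9. ELOVL4, the elongase behind the longest retinal fatty acids, had 141, 157 and 178 FPKM against 12.6 and 12.2 (log2 3.61 ± 0.08, adjusted p = 3.25e-14), while MFSD2A, a lipid transporter of vessels and pigment epithelium, was lower at 0.3298, 0.662 and 1.18 against 7.82 and 9.56 (log2 -2.89 ± 0.24, adjusted p = 8.35e-08).

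Housekeeping groups differed little. Oxidative phosphorylation genes of the nucleus were higher in 12 of 32 and lower in 5, with a median log2 difference of 0.10 against 0.11 over all genes. Cytosolic ribosome genes were higher in 2 of 33 and lower in 15, with a median of -0.24. In dawn 2 and mid-day 1 alone 7 of the 33 ribosome genes were lower, and 28.8% of all genes tested there were lower. No member of either list reached a 4-fold difference. None of the 6 mitochondrially encoded genes tested was called, and their summed FPKM spread from 82.6 to 1801 among retina libraries. Heat shock genes gave 1 higher and 3 lower of 11 and immediate early genes 0 higher and 4 lower of 10. Under 1 FPKM in all 12 retina libraries were 1 of the 11 and 3 of the 10. Over all genes tested 33.7% were higher and 29.0% lower. CRYAB, alpha-B crystallin, was lower at 18.4, 22.000 and 46.9 FPKM against 102 and 109 (log2 -2.06 ± 0.27, adjusted p = 1.35e-05).

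Oligodendrocyte, astrocyte and microglia genes were lower in retina. All 11 oligodendrocyte genes were at least 4-fold lower, with a median log2 difference of -5.67. Of these, 6 were under 1 FPKM in all 12 retina libraries, as were 2 of 7 astrocyte and 3 of 11 microglia and macrophage genes. So were 3 of 10 interferon response, 2 of 11 endothelial and mural and 4 of 6 fibroblast genes. The pools held RNA from corpus callosum, and its part in these differences was not tested. MBP, a myelin protein, had 0.429, 0.651 and 0.966 FPKM against 114 and 166 (log2 -6.90 ± 0.18, adjusted p = 1.97e-13). All 7 astrocyte genes were lower, with a median of -3.57, GFAP at 4.28, 7.63 and 17.3 FPKM against 232 and 187 (log2 -4.66 ± 0.38, adjusted p = 8.84e-08). All 11 microglia and macrophage genes tested were lower, with a median of -2.70, C1QA at 0.679, 1.695 and 3.003 against 23.2 and 25.99. Interferon response genes were lower in 7 of 10 and higher in none, with a median of -1.34, against 29.0% lower over all genes. All 6 fibroblast genes and 8 of 11 endothelial and mural genes were lower, with medians of -4.13 and -1.64. KDR, the receptor of vascular endothelial growth factor that retinal neurons also make, was higher at 60.7, 78.3 and 91.4 FPKM against 8.42 and 12.4 (log2 2.85 ± 0.15, adjusted p = 6.44e-10), and so was the junction protein CLDN5, at 3.48, 8.86 and 19.7 against 2.02 and 2.603 (adjusted p = 0.015004 on FPKM and 0.0638 by voom), while CDH5 and VWF, also endothelial, were lower (log2 -2.31 and -2.09). Of the blood genes HBB and ALAS2 were tested and both were lower with overlapping groups. HBB, beta globin, reached 84.9 FPKM in mid-day 2 and had a median of 8.51 in retina against 53.99 and 137. The globins HBA1 and HBA2 were listed at 0 in all 14 libraries.

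Genes of most pooled organs were low in retina. The 15 largest deficits, of which 14 are named here, included ALB, MYL2, PRL, MYH7, APOH, CKM, FGA, ACTA1, APOA2, CGA, FGB, APOA1, APOB and IGHM, with log2 differences from -10.11 to -8.02. ALB, serum albumin from liver, had 0, 0 and 0.0131 FPKM in retina against 669 and 461 (log2 -10.11 ± 0.13, adjusted p = 1.09e-16). PRL, the pituitary hormone prolactin, had 0, 0.282 and 0.561 against 466 and 542 (log2 -9.37 ± 0.27), and MYH7, the slow and cardiac myosin, 0.0661, 0.108 and 0.204 against 359.8 and 424 (log2 -9.31 ± 0.13). IGHM, the heavy chain of immunoglobulin M, had 0, 0.0824 and 0.577 against 142 and 193 (log2 -8.02 ± 0.30). By organ, lower genes numbered 12 of 12 for liver, 7 of 7 for heart, 10 of 10 for skeletal muscle, 8 of 8 for lung, 7 of 9 for kidney, 8 of 8 for small intestine, 7 of 8 for pituitary, 13 of 15 for brain regions, 3 of 5 for testis and 2 of 3 for ovary. Of these 85 tested genes 57, the 12 of liver among them, were under 1 FPKM in all 12 retina libraries and passed the filter through the pools alone. Over all genes tested 29.0% were lower. In dawn 2 and mid-day 1 alone none of 4 testis and none of 2 ovary genes tested was called. Summed retina levels were highest for brain regions, at 32.1 to 41.8 FPKM, and those for liver were 0.415 to 1.27. The median log2 differences were -8.05 for liver, -6.73 for skeletal muscle, -6.06 for lung, -5.14 for heart, -4.84 for small intestine, -4.31 for kidney, -4.14 for pituitary and -2.16 for brain regions. Where retina is at 0, these log2 values depend on the 0.5 added to each FPKM.

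A few genes known from those organs were higher in retina. TSHB, the beta subunit of thyrotropin listed for pituitary, had 13.1, 17.2 and 24.3 FPKM against 4.97 and 2.03 (log2 2.28 ± 0.24, adjusted p = 1.14e-06), above both pools in every retina library. NPHS1, nephrin of the kidney filter, had 1.12, 2.28 and 2.65 against 0.449 and 0.558 (log2 1.34 ± 0.25, adjusted p = 3.75e-04), and the striatal receptor gene DRD1 17.3, 20.3 and 25.9 against 8.77 and 10.1 (log2 1.08 ± 0.11, adjusted p = 8.30e-07). ADORA2A, an adenosine receptor of the striatum, was higher as well (log2 0.85 ± 0.18, adjusted p = 9.79e-04), at low levels of 0.607 to 1.42 FPKM.

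The pools were not alike in testis RNA. Summed over 10 testis genes, the mid-day pool held 10.3 FPKM and the midnight pool 1877, with 1.64 to 4.63 in retina. PRM1, a protamine of sperm, was at 2.46 and 512 FPKM in the mid-day and midnight pools, TNP1, a transition protein, at 2.89 and 511, and ACRV1, an acrosome protein, at 0 and 7.201. RPGRIP1 and MAK, given above, were also higher in the midnight pool, and the part of testis RNA in this was not tested. Skeletal muscle also differed, with 404 and 17.8 FPKM of the fast myosin MYH1. Over all genes the median absolute difference between the pools was 0.17 log2 units, and 1777 genes differed by more than 1.

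**Figure D4:**
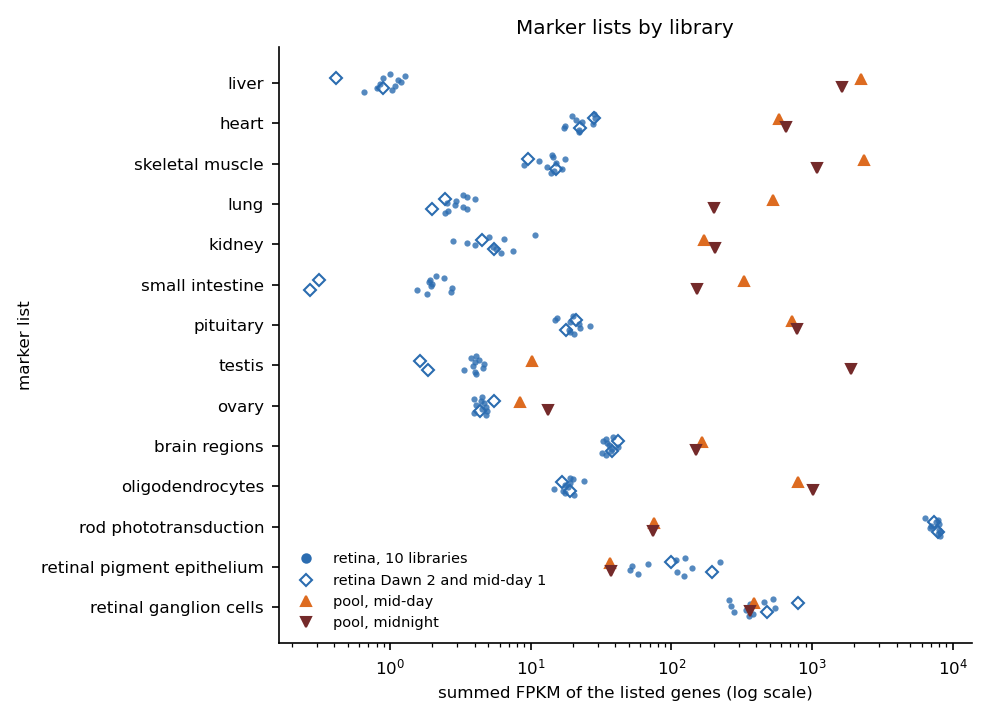
Summed FPKM (x axis, log scale) of the genes of 14 marker lists (y axis) in each of 10 retina libraries (filled circles), retina dawn 2 and mid-day 1 (open diamonds) and the 2 pools (triangles). Organ lists are lower and rod genes higher in retina, and the testis list stands at 10.3 FPKM in the mid-day pool and 1877 in the midnight pool.

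Noncoding RNA had the highest levels. The 10 most abundant genes of the retina included the 7SK and signal recognition particle copies RN7SKP274, RN7SL1 and RN7SKP239, then MALAT1, RMRP, RPPH1, GNAT1, RBP3 and PRPH2. RN7SKP274 had 4992, 6655 and 8204 FPKM against 561 and 557 (log2 3.52 ± 0.35, adjusted p = 7.36e-07), but as 1 of many near-identical copies its level is uncertain. MALAT1, a nuclear RNA, had 1200.0, 1366 and 1536 against 1138 and 1181 and was not called by limma on FPKM (adjusted p = 0.174). Among named long noncoding RNAs the 6 largest differences were those of H19, PCDH9-AS2, OTX2-AS1, USP12-AS1, KDM4A-AS1 and LINC00966. H19, an imprinted RNA, was lower at 0, 0.03899 and 0.473 FPKM against 32.8 and 27.2 (log2 -5.68 ± 0.21, adjusted p = 1.27e-11). LINC00966 was higher at 200.3, 283 and 331 against 11.5 and 10.02 (log2 4.58 ± 0.20, adjusted p = 5.12e-11), and OTX2-AS1, antisense to OTX2, at 21.9, 25.1 and 28.6 against 0.397 and 0.205 (log2 5.0 ± 0.11, adjusted p = 2.04e-14), both in all 12 retina libraries. USP12-AS1 was listed at 0 and 0.404 FPKM in dawn 2 and mid-day 1 and at 21.9 to 36.7 in the other 10. With the strand setting unknown, reads from an antisense gene and its partner cannot be told apart.

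Of the genes listed at 0 in both pools, the 8 of highest retina mean were AP000462.3, MT-TN, RNA5SP118, CTC-559E9.8, RP11-78O9.1, RP11-667M19.10, RNU6-1204P and RP11-701H24.3. AP000462.3 was listed at 0 in dawn 2 and mid-day 1 and at 139 to 194 FPKM in the other 10. RP11-78O9.1 was present in all 12, at 55.2, 75.5 and 120.4 FPKM, and was at least 107-fold higher than the level that 3 reads over both pools would give. Across the table, 41 genes had 0 in both pools and an FPKM of at least 1 in all 12 retina libraries, and 104 had 0 in all 12 retina libraries and at least 1 in both pools. The called genes of highest spread in retina, AP000462.3, RNA5SP118, CTC-559E9.8, RPS17P15, RP11-636N17.1 and RP11-667M19.10, had this split in common, each at or near 0 in dawn 2 and mid-day 1. Over all genes tested the median SD of log2 values was 0.26 between the 12 retina libraries and 0.22 between the 10.

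The pineal gland, an organ with photoreceptor ancestry that makes melatonin, shares part of this program. Between the 12 retina and 12 pineal libraries 20984 of 25673 genes (81.7%) differed by limma, 12248 (47.7%) higher and 8736 (34.0%) lower in retina. The median antisense level was 0.503% to 0.863% of the host in the pineal libraries, near retina dawn 2 and mid-day 1. For the other 10 retina libraries, tissue and this split cannot be told apart. In dawn 2 and mid-day 1 alone 5443 (26.1%) were higher and 6139 (29.5%) lower of 20839. Both comparisons use the same retina libraries, so their lists are not independent. Of the 857 genes at least 4-fold above the pools without overlap, 759 were higher and 36 lower than in the pineal gland. The largest retina excesses over the pineal gland included those of PDE6A, KCNV2, SAG, GUCY2F, PDE6G and NRL, and 4 of these 6 belong to rod phototransduction. PDE6A averaged 338 ± 44.1 FPKM in retina and 0.0708 ± 0.0619 in the pineal gland (SD, n = 12 each, log2 9.21 ± 0.07, adjusted p = 9.25e-33), and NRL 225 ± 26.1 and 1.401 ± 0.375 (log2 6.91 ± 0.09). All 21 rod genes were higher in retina than in the pineal gland, whereas cone genes were divided, 6 higher and 6 lower.

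Other genes above the pools were closer in level between retina and pineal gland, or higher in the pineal gland. CRX averaged 285 ± 48.4 FPKM in retina and 189.8 ± 17.998 in the pineal gland (log2 0.57 ± 0.08), OTX2 99.4 ± 15.3 and 113 ± 18.4 (log2 -0.18 ± 0.09), and RDH12 306 ± 24.7 and 300.3 ± 59.7 (log2 0.05 ± 0.09). AANAT averaged 57.99 ± 12.02 and 52.2 ± 7.099 (log2 0.14 ± 0.09, adjusted p = 0.186). The cone genes GNGT2, OPN1SW and GUCA1C were lower in retina (log2 -1.68 ± 0.10, -1.89 ± 0.51 and -1.41 ± 0.08), although each was at least 4-fold above the pools. OPN1SW ranged so widely in the pineal gland, from 4.68 to 532 FPKM, that both tissues overlapped. Of genes called above the pools, the 8 largest pineal excesses were ASMT, TPH1, CABP1, ISL2, RXRG, PDE1C, GDF10 and COX6B2. The call above the pools was lost by voom for ASMT (adjusted p = 0.203) and GDF10 (0.107), and in dawn 2 and mid-day 1 alone for CABP1 (0.0746) and GDF10 (0.0605). ASMT and GDF10 also lost it with either pool left out, and CABP1 without the midnight pool. ASMT, the last enzyme of melatonin synthesis, averaged 3.39 ± 2.68 FPKM in retina, 149 ± 31.2 in the pineal gland and 0.164 in the pools (log2 against the pineal gland -5.61 ± 0.33, adjusted p = 4.56e-14). TPH1, the first, averaged 12.7 ± 4.94 and 584 ± 116 (log2 -5.52 ± 0.16, adjusted p = 1.94e-20), and RXRG, a retinoid receptor of cones, 17.8 ± 4.11 and 187 ± 49.2 (log2 -3.35 ± 0.13, adjusted p = 1.56e-17).

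**Figure D5:**
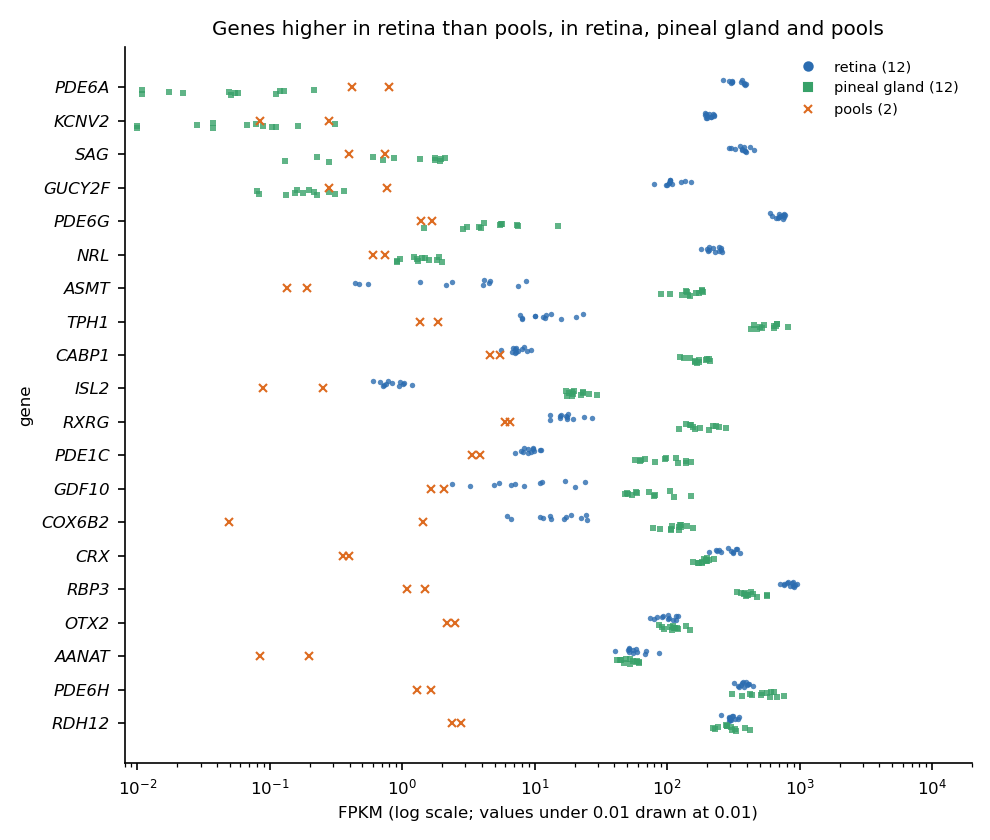
FPKM (x axis, log scale, values under 0.01 drawn at 0.01) of 20 genes (y axis) in the 12 retina libraries (circles), the 12 pineal libraries (squares) and the 2 pools (crosses). From PDE6A to NRL the retina values lie above all pineal values, from ASMT to COX6B2 below them, and in the last 6 genes both tissues lie above the pools.

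The authors' deposited table for retina against control gave 10112 genes higher and 9520 lower at an adjusted p under 0.05, of 39660 with an adjusted p. All 15918 genes called here had an adjusted p there, and 15121 of them were called in the same direction. In the authors' deposited table RBP3 had a log2 fold change of 9.34, GNAT1 of 9.22 and ALB of -16.78, on a scale of counts without a pseudocount. The deposited table titled for pineal gland against control held the same values in all 50308 rows, and its mean counts matched the retina and pool reads recovered here within 0.01 log2 units for 98.7% of 42026 genes.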

How the data were processed

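Per the submitters' processing notes, FastQC, STAR 2.3.0e, Subread, featureCounts and DESeq2 were used with human build hg19. The annotation, filters and strand setting are not given in the sources used here. The deposited FPKM values cover 50308 genes in 26 libraries. Each value was taken as a whole multiple of a gene's 1-read step. From this, whole reads were recovered for all 40687 genes above 0 in at least 2 libraries. The 2117 genes above 0 in only 1 library were not fixed. Each step was chosen so that all values of the gene came within 0.0001 of a whole number. That 100.0% of values did so is therefore no check of the recovery. The authors' deposited table of retina against control gives a mean normalised count (signal), the log2 fold change, the error of that change, a score from the test and p-values, named as in DESeq2 output per the file headers. Other deposited comparisons were not used here.

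FPKM values were tested as log2(FPKM + 0.5) with limma 3.58.1 in R 4.3.3 (empirical Bayes with a mean-variance trend, two-sided, Benjamini-Hochberg over all tested genes), the 12 retina libraries as 1 group against 2 pools, and separately against 12 pineal libraries. Genes had to reach an FPKM of 1 in 2 or more fitted libraries. Called means an adjusted p under 0.05. Summaries and plots used Python 3.11.15, pandas 2.3.3 and matplotlib 3.10.9.

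Genes were named by rule: the 15 largest differences upward and the 15 largest downward, of called genes averaging 5 FPKM or more in the higher group without overlap or a clone-like name, the 10 most abundant, the 8 most abundant at 0 in both pools, the 6 called genes of largest SD, the 6 largest named long noncoding RNAs, 8 in each direction against the pineal gland, and members of 41 gene lists with 564 distinct genes. Some genes that the rule names are not reported here. The members and lists were chosen with earlier results of these data known. With 2 pools of unstated animal numbers, p-values reflect only how these libraries vary, which may be technical in the pools. A fit with 1 pool assumes that it varies like retina. Alternatives were other pseudocounts, filters, scalings, the read-based fit and single libraries left out. Dawn and dusk were also left out, as were dawn 2 and mid-day 1, or these 2 were used alone. For mid-day and for midnight, the retina libraries were contrasted with the 1 pool of that time, with filter and variance from all 14 libraries.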

Additional observations from a re-analysis of the deposited data

Results flagged for a closer look

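In 3 of the genes named above, none of them called, retina and pool differed in opposite directions at the 2 times, with every retina library of a time on the same side of that time's pool. IFT88, a transport protein of cilia, was above the mid-day pool by a log2 difference of 0.15 and below the midnight pool (-0.25). SPATA7, a protein of the connecting cilium that is also known from testis, was above the mid-day pool (0.50) and below the midnight pool (-1.02). PER2, a clock repressor, was below the mid-day pool (-0.38) and above the midnight pool (0.079). With 1 pool a time the difference between times was not tested.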

How the results depend on the processing

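Of 15918 genes called between retina and pools, the count stayed within 1.5 times under other pseudocounts, filters, scalings and fits and without any retina library, where it ran from 12743 to 21092. It fell to 9917 with mid-day libraries only, to 10296 with midnight libraries only and to 9755 with retina dawn 2 and mid-day 1 alone. Leaving out 1 library at a time gave 8274 to 16723 in all, 4259 to 9190 higher and 3779 to 7533 lower, and the low ends came from leaving out a pool. The count of higher genes was 5296 by voom on recovered reads, 4420 at mid-day only, 4177 at midnight only and 3998 in the 2 libraries alone. The count of lower genes was 12470 with no filter on low values. Called genes that were higher made up 53.7% as reported, 41.6% by voom, 61.5% with the filter in at least 3 libraries and 40.9% with no filter.

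Against the pineal gland, dawn 2 and mid-day 1 alone gave 11582 calls, 5443 of them higher, and every other alternative listed stayed within 1.5 times of 20984. Same-numbered retina and pineal libraries deviated together little (correlations from -0.0568 to 0.104). However, 7 of 12 retina libraries correlated best with the pineal library of their own number. With 12 animals in all, both tissues may come from the same animals, but the numbers were not taken as pairs. The fit with the replicate block gave 20923 calls. A gene listed at 0 in both pools may still be present there below this depth. The level that 3 reads over both pools would give was taken as its floor. AP000462.3, RNA5SP118, CTC-559E9.8, RP11-667M19.10, RP11-701H24.3, RPS17P15, RP11-636N17.1, USP12-AS1, PCDH9-AS2, ASMT and GDF10 were not called by voom, and the cause was not tested.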
